A study of Homo sapiens with 6 samples.

Results

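Interferon-stimulated effector genes are the genes that a cell switches on after it senses interferon, and whose products act directly against viruses and other intracellular pathogens. Here they are a list of 50 genes, chosen by name but with earlier results of these data known. Each was represented by its brightest probe set with a single gene symbol, brightest meaning the highest mean over the 6 arrays of the series. All 50 had such a probe set, among 19775 genes in all, and all 50 exceeded the median of an array's probe sets on at least 1 array and were therefore among the 14387 genes tested. They were measured in Panc1 and BxPC3, established human pancreatic ductal adenocarcinoma lines, as control cells that are wild type for KDM6A and as KDM6A-knockout cells.

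There was 1 control and 1 knockout array of Panc1, and there were 2 of each for BxPC3. In both lines the knockout was made with a lentiviral CRISPR/Cas9 vector and puromycin selection, followed by cloning through limiting dilution. It is not stated whether control cells carried a vector or were cloned, so loss of KDM6A cannot be told apart from the infection, selection and cloning of the knockout cells. Nor is it stated how many clones the knockout arrays represent or whether replicate BxPC3 arrays were grown as separate cultures, and p-values therefore measure only the spread between arrays, which may be technical. No interferon treatment is named in the labels. The question addressed is which of these genes were lower after KDM6A knockout in each line, and whether the lines differed.

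As background, type I and type III interferons bind receptors that activate JAK kinases, and these switch on the transcription factor complex ISGF3. Its subunit IRF9 contacts DNA, and the complex binds interferon-stimulated response elements in the promoters of most of the genes listed here. Interferon-gamma acts largely through a different site, and guanylate-binding proteins are typical of its targets. Many of the products are also kept at a low level without interferon, and in some tumour lines they are constitutively high. KDM6A, also called UTX, removes the repressive methyl mark that Polycomb places on histone H3.

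The values are log2 expression levels. Because the lines appear to have been normalised separately (2895 probe sets had identical values on both Panc1 arrays, and 0 had identical values between arrays of different lines), levels were compared within a line only. KDM6A itself read 8.02 and 7.85 on the BxPC3 control arrays and 7.29 and 7.01 on the knockout arrays (-0.79 ± 0.12, SE, adjusted p = 0.0329, limma). In Panc1 it read 6.73 in control and 4.06 in knockout cells. The BxPC3 control arrays correlated at 0.998 and the knockout arrays at 0.996. Markers of epithelial cells, fixed as EPCAM, KRT8, KRT18, KRT19 and CDH1, were above the array median on all 6 arrays, while the defining leukocyte marker PTPRC was below it on all 6. Of the other leukocyte markers, CD3E and IL3RA were above it on all 6, CD14 on 3 and CSF1R on 2 arrays, and MS4A1, NKG7 and CLEC4C on none.

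Promoter sequences are shown first, for members whose values differed most and whose promoter window holds an interferon-stimulated response element. The element was searched as GAAA followed, after any 2 bases, by another GAAA, on both strands, in RefSeq windows of build GRCh38.p14 that run from 250 bases before to 50 bases after a start site. Capitals mark the element, which on the opposite strand reads as TTTC, any 2 bases, TTTC. The first 6 are the members with the lowest BxPC3 differences among those described array by array. IFITM1, with the lowest Panc1 difference, and MX1, with the smallest BxPC3 difference, were added after their values were seen.
RSAD2, chr2:6877587-6877686, plus strand: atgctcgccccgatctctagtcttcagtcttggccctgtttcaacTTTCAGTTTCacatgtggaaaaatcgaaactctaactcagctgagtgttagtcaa
IFIT1, chr10:89392462-89392574, plus strand: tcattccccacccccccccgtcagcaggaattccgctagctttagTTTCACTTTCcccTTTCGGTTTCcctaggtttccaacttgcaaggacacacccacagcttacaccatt
ISG20, chr15:88638902-88639001, plus strand: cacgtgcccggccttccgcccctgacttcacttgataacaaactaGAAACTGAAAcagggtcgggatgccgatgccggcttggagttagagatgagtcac
RTP4, chr3:187368298-187368421, plus strand: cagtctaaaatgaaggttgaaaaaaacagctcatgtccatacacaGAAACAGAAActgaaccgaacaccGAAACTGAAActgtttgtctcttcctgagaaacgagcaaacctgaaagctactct
IFIH1, chr2:162318783-162318888, minus strand: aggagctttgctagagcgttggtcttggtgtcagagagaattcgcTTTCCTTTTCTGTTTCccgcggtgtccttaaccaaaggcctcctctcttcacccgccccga
IFIT3, chr10:89327796-89327929, plus strand: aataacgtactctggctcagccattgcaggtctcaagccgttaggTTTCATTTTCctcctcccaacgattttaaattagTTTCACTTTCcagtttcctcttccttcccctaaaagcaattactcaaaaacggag
MX1, chr21:41420524-41420607, plus strand: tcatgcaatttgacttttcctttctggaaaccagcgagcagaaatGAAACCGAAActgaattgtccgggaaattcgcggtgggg
IFITM1, chr11:313955-314088, plus strand: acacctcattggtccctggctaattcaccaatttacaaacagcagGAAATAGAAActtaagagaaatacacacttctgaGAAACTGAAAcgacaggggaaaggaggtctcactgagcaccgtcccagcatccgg

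In these stretches IFIT1, RTP4, IFIT3 and IFITM1 carry 2 elements each, and in IFIH1 2 elements overlap. The element of RSAD2 starts at position -145 from the start site, and that of ISG20 at -69. The element shown for MX1 starts at position 11, past the start site. Of the 50 members, 41 had at least 1 window and 9 had none. The element was present in 35 of 55 member windows, or 63.6%, and in 1255 of all 35116 windows, or 3.57%. Counted by gene, it was present in 30 of 41 members, or 73.2%, against 4.38% of all genes with a window. Most matches lay just upstream, with 53 of 57 between the start site and 200 bases before it. Matches were counted in each window, so an element in overlapping windows of a gene, as in IFI27, IFI44 and PLSCR1, counts more than once. A STAT site, searched as TTCNNNGAA, was present in 14 of 55 member windows, or 25.5%, and in 7.66% of all windows. These matches describe the sequence and are not evidence of binding.

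**Figure D1:**
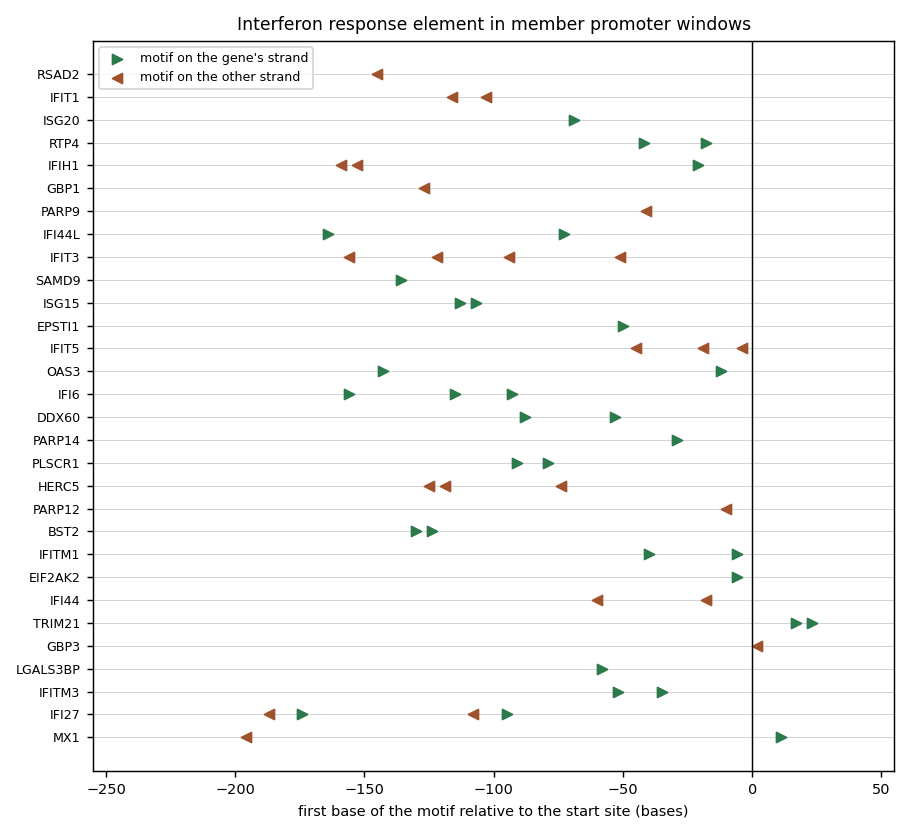
Position of each interferon-stimulated response element in the promoter windows of the 30 members that hold one, in bases from the start site at 0. Several windows of a gene are drawn on 1 line, and triangles point along the strand of the match. Counted in each window, so that overlapping windows repeat an element, 53 of 57 matches lie before the start site.

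Members that fell and members that did not both held the element. It was present in 22 of 32 members with a window that fell in BxPC3, or 68.8%, and in 8 of 9 that did not pass the test there. In Panc1 it was present in all 7 members with a window that were at least 2-fold lower, and in 23 of 34 others. RSAD2, with the lowest difference in BxPC3, holds it, and so does MX1. MX1 was below the array median on all 4 BxPC3 arrays, so that a fall of it could hardly be measured there.

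In BxPC3, 38 of the 50 members fell after KDM6A knockout and 0 rose, against 3.58% of all tested genes that fell (515 of 14387, limma, Benjamini-Hochberg adjusted p under 0.05). All 50 differences were below 0, as were 7086 of the 14387 tested genes. Both knockout arrays lay below both control arrays for 49 of the 50, against 26.8% of tested genes, and MX1 was the exception. The median member difference was -0.77, where the median over all genes was 0.01. At an unadjusted p under 0.05 (limma), 49 were lower, and the share of all tested genes at that threshold was not computed. Without control array 1 the number of members that fell was 6, without control array 2 it was 4, without knockout array 1 it was 33 and without knockout array 2 it was 20, each with 1 residual degree of freedom. Over all tested genes the share that fell was then 0.598%, 0.549%, 3.43% and 1.56%. RSAD2, IFIT1, ISG20 and USP18 passed the test whichever array was left out.

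**Figure D2:**
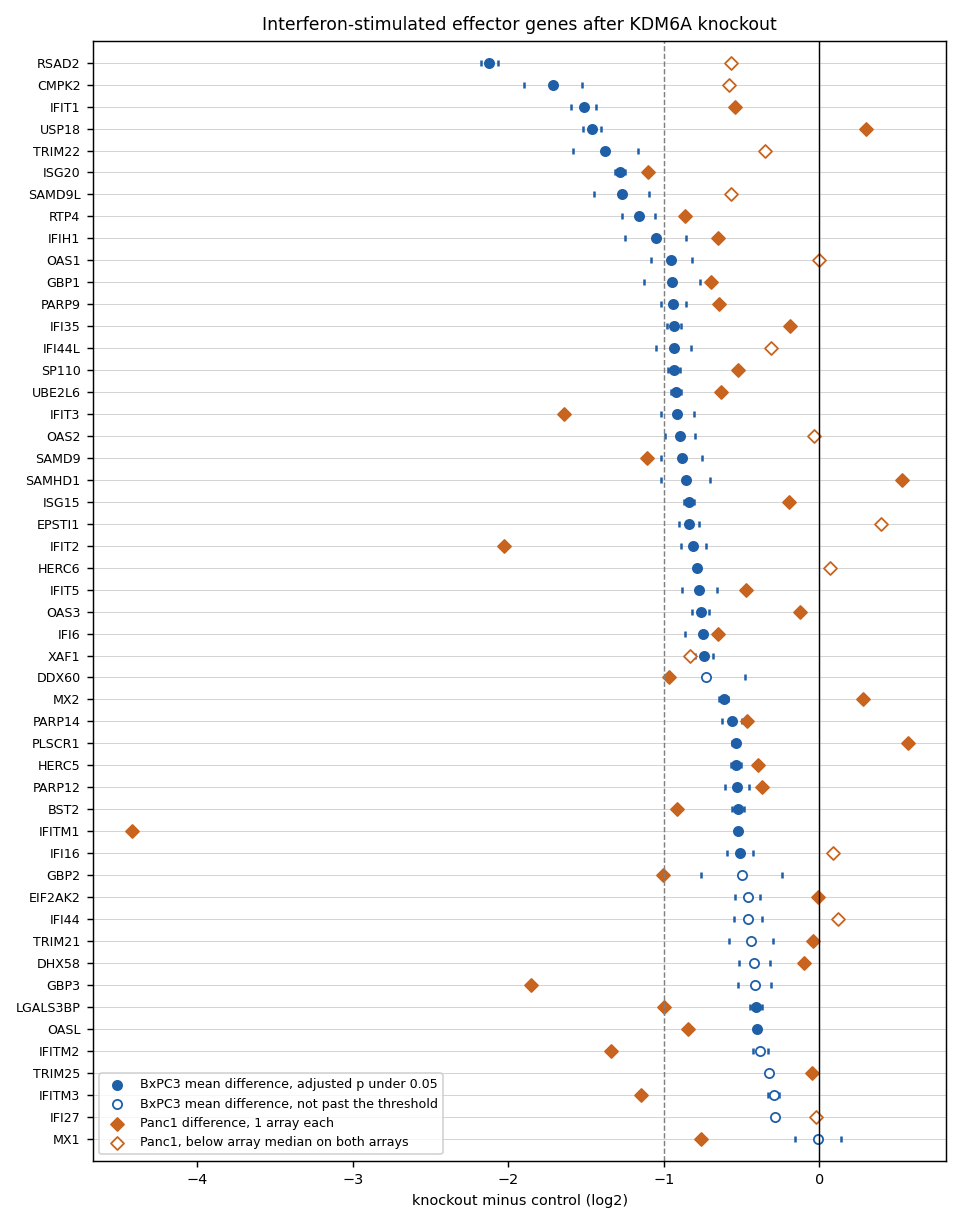
Knockout minus control on the log2 scale for each of the 50 members, ordered by the BxPC3 difference. Blue circles are BxPC3 means of 2 against 2 arrays with ticks for each knockout array minus the control mean, orange diamonds are Panc1 with 1 array each, and the dashed line marks 2-fold lower. All BxPC3 means lie below 0, from -2.12 in RSAD2 to -0.01 in MX1, while 8 Panc1 differences lie above 0.

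The BxPC3 arrays of a group were close to each other for these genes. The gap between the control arrays had a median of 0.08 and was largest in RTP4 at 0.23. Control array 1 was above control array 2 in 4 of 50 members, against 43.2% of tested genes. Control array 1 thus stood lower than control array 2 for most members, by a median of 0.08, where the median of array 1 minus array 2 over tested genes was -0.01. The gap between the knockout arrays had a median of 0.16 and was largest in GBP2 at 0.52. Knockout array 1 was above knockout array 2 in 39 of 50 members, against 60.5% of tested genes. Knockout array 2 therefore stood lower than knockout array 1 for most members, by a median of 0.15, where the median over all tested genes was 0.04. Against the control mean, the median member was -0.69 on knockout array 1 and -0.84 on knockout array 2. In bulk RNA, fewer cells with a high level and less RNA per cell cannot be told apart.

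In Panc1, with 1 array per group and no replicate check, 10 of the 50 members were at least 2-fold lower in knockout cells and 0 were at least 2-fold higher. The share of all tested genes at least 2-fold lower was 3.28%. In all, 41 members were below 0, 8 were above 0, and OAS1 was equal on both arrays. Over all tested genes, 7101 of 14387 were below 0. The median member difference was -0.54, against 0.04 over all genes and 0.00 over tested genes. Subtracting from each array the median over tested genes moved the Panc1 differences up by 0.20. The number at least 2-fold lower was then 5 (IFIT2, IFIT3, IFITM1, IFITM2 and GBP3), and the 9 members IFI27, IFI35, ISG15, OAS2, OAS3, DHX58, EIF2AK2, TRIM21 and TRIM25 changed from below 0 to above 0.

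The starting level differed between members. On the BxPC3 arrays, 49 members were above the array median on all 4 arrays, and MX1 was below it on all 4, having passed the filter through Panc1. On the Panc1 arrays, 32 members were above the median on both, and 13 were below it on both. Those 13 were RSAD2, CMPK2, TRIM22, SAMD9L, OAS1, IFI44L, OAS2, EPSTI1, HERC6, XAF1, IFI16, IFI44 and IFI27, and RMA compresses differences at such low levels. RTP4, GBP1, SAMD9, GBP2 and GBP3 were above the median on the Panc1 control array and below it on the knockout array. Split by mean level in Panc1, the 33 members above the array medians had a median difference of -0.55, with 8 at least 2-fold lower, and the 17 at or below had a median of -0.35, with 2 at least 2-fold lower.

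**Figure D3:**
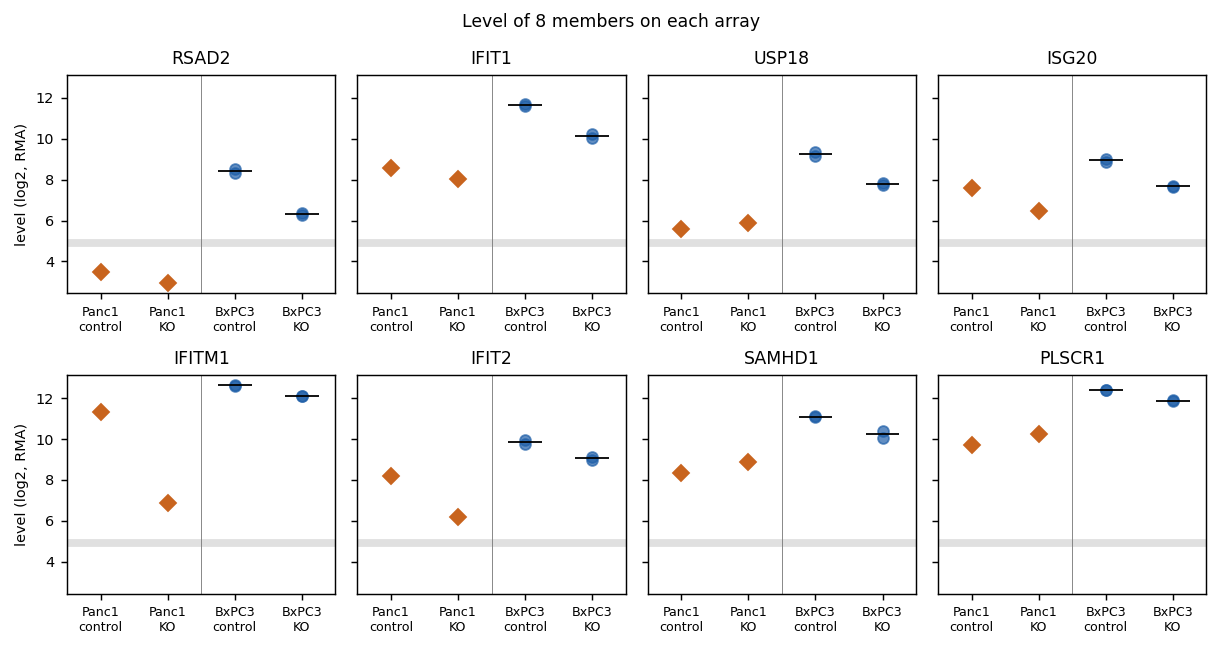
RMA level on the log2 scale of 8 members on each array, with black bars for BxPC3 group means and a grey band for the range of the array medians, 4.75 to 5.06. Levels should be compared within a line only. IFITM1 stands at 11.30 and 6.88 in Panc1, and SAMHD1 and PLSCR1 are higher on the Panc1 knockout array but lower on both BxPC3 knockout arrays.

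Among the members that block translation of foreign RNA, 6 of 7 fell in BxPC3 and 3 were at least 2-fold lower in Panc1. The group medians were -0.88 in BxPC3 and -0.57 in Panc1. IFIT proteins bind viral RNA that lacks the host cap methylation. IFIT1 read 11.61 and 11.70 on the BxPC3 control arrays and 10.22 and 10.06 on the knockout arrays (-1.52 ± 0.09, SE, n = 2 arrays per group, adjusted p = 0.00339, limma), and 8.57 in control and 8.03 in knockout Panc1. The groups did not overlap in BxPC3, and the fall was 2.86-fold. IFIT2, which promotes apoptosis as well as binding RNA, read 9.78 and 9.94 in control and 9.13 and 8.97 in knockout BxPC3, and 8.20 and 6.17 in Panc1. IFIT3, which stabilises IFIT1 on RNA, read 12.08 and 12.17 in control and 11.31 and 11.11 in knockout BxPC3, and 7.57 and 5.93 in Panc1.

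By their brightest probe sets, IFIT2 and IFIT3 thus had the reverse order of IFIT1. Their Panc1 differences were -2.03 and -1.64, and their BxPC3 differences -0.81 ± 0.10 and -0.91 ± 0.10 (SE, adjusted p = 0.0170 and 0.0129, limma). For IFIT2 the size in Panc1 rested on the probe set: a dimmer probe set of the gene gave -0.18 there and -0.67 in BxPC3. The second probe set of IFIT3, above the array median on all 6 arrays, gave -0.98 in Panc1 and -1.02 in BxPC3. With these other probe sets neither gene had the reverse order. SAMD9L and SAMD9, neighbouring genes whose products restrict poxviruses and slow translation, also fell in BxPC3. SAMD9L read 9.03 and 9.08 in control and 7.96 and 7.60 in knockout BxPC3, and 4.56 and 3.99 in Panc1. SAMD9 read 10.62 on both BxPC3 control arrays, 9.87 and 9.60 on the knockout arrays, and 5.29 and 4.18 in Panc1. IFIT5 fell by 0.77 in BxPC3, while EIF2AK2, the kinase PKR that halts translation on double-stranded RNA, did not pass the test there (-0.46, adjusted p = 0.0614, limma).

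The next group holds the oligoadenylate synthetase family and enzymes that degrade RNA or deplete nucleotides, and all 6 fell in BxPC3, with a median of -0.88. In Panc1 their median was -0.08, and ISG20 was the 1 member at least 2-fold lower. ISG20, an exonuclease that degrades single-stranded RNA, read 8.88 and 9.02 in control and 7.64 and 7.70 in knockout BxPC3, a difference of -1.28 ± 0.08 (SE, adjusted p = 0.0040, limma). In Panc1 it read 7.57 and 6.47, and a separate probe set of the gene gave -1.11 there, close to the -1.10 of the brightest. It was the only member at least 2-fold lower in both lines, at 2.43-fold in BxPC3 and 2.15-fold in Panc1, where it was under 2-fold with arrays centred.

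OAS1, OAS2 and OAS3 make the second messenger that activates RNase L. OAS1 read 10.10 and 10.19 in control and 9.33 and 9.06 in knockout BxPC3, and 4.16 on both Panc1 arrays. OAS2 read 9.69 and 9.75 in control and 8.91 and 8.72 in knockout BxPC3, and 4.17 and 4.13 in Panc1. Both were thus below the array median in Panc1, where they differed by 0.00 and -0.04. OAS3 fell by 0.76 in BxPC3, and OASL, a relative without synthetase activity, by 0.40. SAMHD1, which hydrolyses the deoxynucleotides that reverse transcription needs, had differences of opposite sign in the 2 lines. It read 11.06 and 11.12 in control and 10.38 and 10.07 in knockout BxPC3, a difference of -0.86 ± 0.12 (SE, adjusted p = 0.0255, limma), but 8.33 in control and 8.86 in knockout Panc1. All 5 of its probe sets above the median on at least 1 array were lower in BxPC3, from -1.06 to -0.84, and higher in Panc1, from 0.16 to 0.72.

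Of the sensors of foreign nucleic acid, 2 of 4 fell in BxPC3 and 0 were at least 2-fold lower in Panc1. IFIH1, the sensor MDA5 of long double-stranded RNA, read 9.47 and 9.58 in control and 8.66 and 8.28 in knockout BxPC3, a difference of -1.05 ± 0.14 (SE, adjusted p = 0.0235, limma), and 6.74 and 6.08 in Panc1. IFI16, a DNA sensor, fell by 0.51 in BxPC3 and was below the median in Panc1. DHX58, which regulates the RIG-I-like receptors, and the helicase DDX60 did not pass the test in BxPC3, at -0.42 and -0.73. DDX60 read 10.98 on both control arrays and 10.50 and 10.00 on the knockout arrays of BxPC3, so that the groups did not overlap but the knockout arrays were far apart. In Panc1 DDX60 read 6.78 and 5.81.

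Of the 5 interferon-induced GTPases, 2 fell in BxPC3 (GBP1 and MX2) and 2 were at least 2-fold lower in Panc1, and their medians were -0.50 in BxPC3 and -0.76 in Panc1. MX2, which blocks nuclear entry of retroviral genomes, read 9.75 and 9.89 in control and 9.18 and 9.24 in knockout BxPC3, and 7.62 and 7.90 in Panc1. MX1, the related inhibitor of influenza viruses, read 3.39 and 3.61 in control and 3.35 and 3.64 in knockout BxPC3, and 5.99 and 5.23 in Panc1. MX1 was thus the 1 member whose groups overlapped in BxPC3, at levels below the array median. Guanylate-binding proteins attack the membranes around intracellular pathogens. GBP2 read 7.59 and 7.77 in control and 7.44 and 6.92 in knockout BxPC3, and 5.06 and 4.05 in Panc1. GBP3 read 10.70 and 10.77 in control and 10.42 and 10.21 in knockout BxPC3, and 6.42 and 4.57 in Panc1. GBP3 differed by -1.85 in Panc1, with its knockout level below the array median, while in BxPC3 its difference of -0.42 did not pass the test (adjusted p = 0.0894, limma).

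Members that act at membranes or are secreted held the extremes of both lines. Of the 9, 7 fell in BxPC3 and 4 were at least 2-fold lower in Panc1, with medians of -0.52 and -0.92. RSAD2, or viperin, makes a chain-terminating nucleotide and sits on the endoplasmic reticulum and lipid droplets. It read 8.34 and 8.52 in control and 6.36 and 6.25 in knockout BxPC3, a difference of -2.12 ± 0.09 (SE, adjusted p = 0.00203, limma), or 4.36-fold. In Panc1 it read 3.49 and 2.92, below the array median on both, and a separate probe set gave 0.09 there. CMPK2, the mitochondrial nucleotide kinase encoded beside RSAD2 that supplies its substrate, read 10.03 and 10.22 in control and 8.60 and 8.22 in knockout BxPC3, and 3.69 and 3.11 in Panc1. These 2 neighbours had the lowest differences of all members in BxPC3. RTP4, a chaperone of receptors, read 7.94 and 8.17 in control and 6.99 and 6.78 in knockout BxPC3, and 4.78 and 3.92 in Panc1.

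The IFITM proteins, which hinder fusion of viruses with endosomal and plasma membranes, were among the lowest in Panc1. IFITM1 read 11.30 in control and 6.88 in knockout Panc1, 21.4-fold lower and the lowest difference of any member in either line. In BxPC3 it read 12.60 and 12.66 in control and 12.10 and 12.11 in knockout, a difference of -0.52 ± 0.07 (SE, adjusted p = 0.0200, limma). IFITM2 read 11.60 and 10.26 in Panc1, and 12.04 and 12.21 in control and 11.70 and 11.80 in knockout BxPC3. IFITM3 read 12.18 and 11.03 in Panc1, and 12.97 and 12.99 in control and 12.72 and 12.65 in knockout BxPC3. All 3 were thus at least 2-fold lower in Panc1, and in BxPC3 IFITM2 and IFITM3 did not pass the test although their groups did not overlap. The probe sets of these close paralogs are of types that can bind several similar transcripts, so the share of each paralog is uncertain, and each paralog had 1 probe set above the median.

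LGALS3BP, a secreted glycoprotein that binds galectin, was also lower in both lines. It read 11.13 on both control arrays and 10.76 and 10.69 on the knockout arrays of BxPC3, a difference of -0.41 ± 0.07 (SE, adjusted p = 0.0415, limma), and 9.03 and 8.03 in Panc1. BST2, or tetherin, which holds budding virions on the cell surface, fell by 0.52 in BxPC3 and differed by -0.92 in Panc1. PLSCR1, a lipid scramblase that also acts in the nucleus, read 12.42 and 12.41 in control and 11.90 and 11.86 in knockout BxPC3, but 9.70 in control and 10.26 in knockout Panc1. Its second probe set above the median gave 0.76 in Panc1 and -0.53 in BxPC3, so that both probe sets had opposite signs in the lines.

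ISG15 is a ubiquitin-like protein that UBE2L6 and HERC5 attach to other proteins and that USP18 removes. Of the 6 members of this system, 5 fell in BxPC3 and 0 were at least 2-fold lower in Panc1, with medians of -0.81 and -0.12. USP18, which also blocks signalling from the interferon receptor, read 9.14 and 9.34 in control and 7.72 and 7.83 in knockout BxPC3, a difference of -1.47 ± 0.10 (SE, adjusted p = 0.0045, limma). In Panc1 it read 5.60 in control and 5.90 in knockout cells. ISG15 read 12.09 and 12.23 in control and 11.29 and 11.35 in knockout BxPC3, and 9.22 and 9.02 in Panc1. HERC6 read 10.31 and 10.33 in control and 9.53 and 9.54 in knockout BxPC3, and 3.74 and 3.80 in Panc1, below the median. Its call in BxPC3 was lost when all probe sets of the gene were averaged (adjusted p = 0.297, limma). The second probe set of HERC6 in that average was above the array median on 0 arrays. UBE2L6, the conjugating enzyme, fell by 0.92 and HERC5 by 0.54 in BxPC3, and TRIM25, a ligase that modifies RIG-I, did not pass the test at -0.33.

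PARP9, PARP12, PARP14, TRIM21 and TRIM22 belong to families that modify other proteins with ADP-ribose or ubiquitin. With TRIM25, described above, 4 of these 6 fell in BxPC3 and 0 were at least 2-fold lower in Panc1. TRIM22, a restriction factor of several viruses, read 10.66 and 10.69 in control and 9.51 and 9.09 in knockout BxPC3, a difference of -1.38 ± 0.15 (SE, adjusted p = 0.0133, limma), and 3.07 and 2.72 in Panc1. PARP9, PARP14 and PARP12 fell by 0.94, 0.56 and 0.53 in BxPC3. In Panc1 they differed by -0.65, -0.47 and -0.37. TRIM21, an antibody receptor in the cytosol, did not pass the test in BxPC3 at -0.44.

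Of the 8 remaining members, 6 fell in BxPC3, with a median of -0.79, and 0 were at least 2-fold lower in Panc1, with a median of -0.25. IFI35 read 8.94 and 9.07 in control and 8.11 and 8.02 in knockout BxPC3, and 7.81 and 7.63 in Panc1. EPSTI1 read 10.31 and 10.38 in control and 9.57 and 9.44 in knockout BxPC3, and 2.94 and 3.33 in Panc1, below the median on both. SP110, a nuclear body protein, fell by 0.94 in BxPC3, as did IFI44L. XAF1, which antagonises an inhibitor of apoptosis, and IFI6, which protects the endoplasmic reticulum from viral replication, fell by 0.74 and 0.75 in BxPC3 and differed by -0.84 and -0.65 in Panc1. XAF1 was below the median on both Panc1 arrays, and its other probe sets gave -0.18 and 0.12 there. IFI44 and IFI27 did not pass the test in BxPC3, at -0.46 and -0.29, and were below the median in Panc1.

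Of the 10 members with the lowest differences in BxPC3 and the 10 in Panc1, ISG20 was the 1 in both. Of the 38 members that fell in BxPC3, 6 were at least 2-fold lower in Panc1 (ISG20, IFIT3, SAMD9, IFIT2, IFITM1 and LGALS3BP), which is 15.8% of the BxPC3 list and 60% of the Panc1 list. Over all tested genes, 54 (0.375%) met both criteria, of 515 that fell in BxPC3 and 472 at least 2-fold lower in Panc1. The shares of the 2 member lists compare with these counts and not with 0.375%. Of all 50 members, 76% fell in BxPC3 and 20% were at least 2-fold lower in Panc1. Within the members, the 60% and the 15.8% were thus both below the share of the whole list. The other 4 members at least 2-fold lower in Panc1 were GBP2, GBP3, IFITM2 and IFITM3. Of the members that fell in BxPC3, 7 were above 0 in Panc1 (USP18, SAMHD1, EPSTI1, HERC6, MX2, PLSCR1 and IFI16), of which HERC6 was below 0 with quantile normalisation over all arrays and IFI16 with probe sets averaged. EPSTI1, HERC6 and IFI16 were below the array median on both Panc1 arrays, where a sign carries little information, and USP18, SAMHD1, MX2 and PLSCR1 were above it on both. Across the 50 members the differences of the lines correlated with Pearson's r = -0.08 and Spearman's rho = -0.06, a description over genes that share arrays and are not independent.

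**Figure D4:**
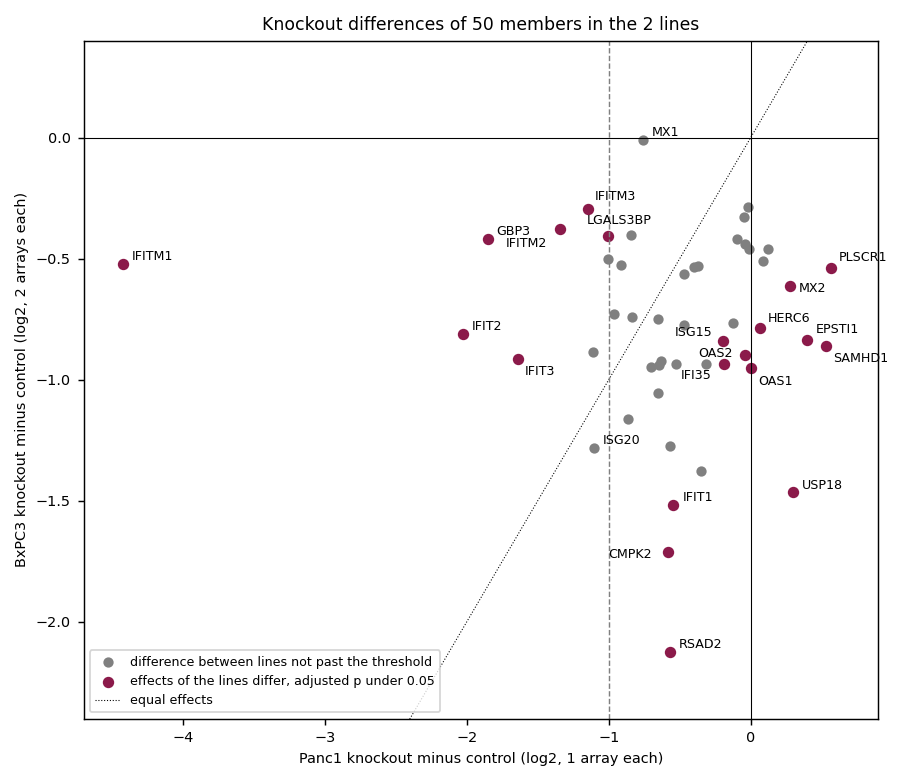
BxPC3 against Panc1 knockout minus control differences of the 50 members, both on the log2 scale. Red points are the 20 members whose effects differed between the lines, the dotted line marks equal effects and the dashed line 2-fold lower in Panc1, and ISG20 lies near equality while IFITM1 lies far to the left.

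The difference between the lines was itself tested, as an interaction in limma that takes the Panc1 arrays to vary as the BxPC3 arrays do. The effects of 20 members differed between lines, against 14.0% of tested genes in either direction. In 13 of them the BxPC3 difference was the lower, led by USP18 (BxPC3 minus Panc1 effect of -1.76 ± 0.17, SE, adjusted p = 0.00821), RSAD2 (-1.55) and SAMHD1 (-1.39). In 7 the Panc1 difference was the lower, led by IFITM1 (3.90 ± 0.11, SE, adjusted p = 0.00251), GBP3 (1.44) and IFIT2 (1.22). With probe sets averaged, 3 calls were lost. The difference was then 0.36 for IFIT2 (adjusted p = 0.104), 0.34 for IFIT3 (adjusted p = 0.138) and -0.37 for HERC6 (adjusted p = 0.252). The second probe set of HERC6 was above the array median on 0 arrays. Of the 13, RSAD2, CMPK2, OAS1, OAS2, EPSTI1 and HERC6 were below the array median on both Panc1 arrays and passed the filter through BxPC3 alone, so that a fall in Panc1 could hardly be measured, and IFIT1, USP18, IFI35, SAMHD1, ISG15, MX2 and PLSCR1 were above it on both. RSAD2, IFITM1 and USP18 differed whichever BxPC3 array was left out. Fewer members differed without either control array, and more without either knockout array. The share over all tested genes was not computed for those fits, so these changes cannot be set against it.

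Taking both lines together, in a limma fit with line and genotype as terms, ISG20 was the 1 member that fell (-1.22, adjusted p = 0.0227), against 0.0834% of tested genes. The difference between lines counts as error in that fit. The call for ISG20 was lost with centred arrays (adjusted p = 0.0768), with quantile normalisation over all arrays (adjusted p = 0.0560) and whichever BxPC3 array was left out (adjusted p between 0.184 and 0.356).

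Many of these genes arose by duplication and still lie side by side, and 25 members fall into 10 groups of neighbours within 500 kb in the RefSeq table. All 3 clustered OAS genes fell in BxPC3, within a range of 0.19, and none of the 3 was 2-fold lower in Panc1. All 4 IFIT genes fell in BxPC3, within a range of 0.74, and in Panc1 they spanned 1.56. IFIT2 and IFIT3 were at least 2-fold lower there by their brightest probe sets. The 3 IFITM genes spanned 0.23 in BxPC3 and 3.27 in Panc1. RSAD2 and CMPK2 differed by 0.41 in BxPC3 and by 0.01 in Panc1, where both were dim. MX2 fell in BxPC3, and its neighbour MX1 was below the array median on all 4 BxPC3 arrays, where a fall could hardly be measured.

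**Figure D5:**
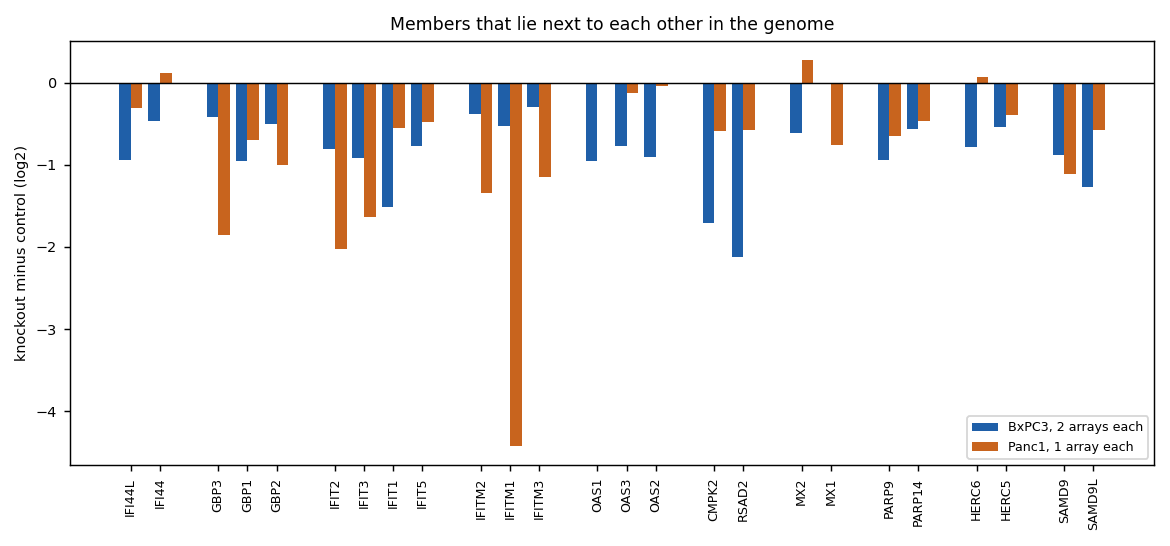
Knockout minus control on the log2 scale for the 25 members that have another member within 500 kb, with bars from 0 and gaps between the 10 groups, blue for BxPC3 means of 2 against 2 arrays and orange for Panc1 with 1 array each. The IFITM group is low in Panc1, down to -4.42, and the RSAD2 and CMPK2 pair is low in BxPC3.

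Of 42 further single-symbol probe sets of the members, 36 were above the array median on at least 1 array. All 36 had the sign of the representative in BxPC3, and 24 of 36 did in Panc1. Probe sets could pass this filter through BxPC3 alone. Most of those without the sign in Panc1 were below the array median on both Panc1 arrays, where a sign carries little information. They belonged to EIF2AK2, EPSTI1, IFI16, IFIH1, OAS2, OAS3, RSAD2, SAMD9L and XAF1, and for EPSTI1, OAS2 and SAMD9L the difference was 0. The rest, of OAS2, SP110 and TRIM25, were above it on both. In 24 members with more than 1 such probe set, all probe sets were below 0 in BxPC3 in 24, while in Panc1 9 members had probe sets of both signs. Of these 9, only SP110 and TRIM25 had both signs among probe sets above the array median on both Panc1 arrays.

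Other genes of the interferon pathway were taken from a list, and 4 of the 35 measured outside the interferons themselves fell in BxPC3. The 6 interferon genes measured (IFNB1, IFNE, IFNK, IFNG, IFNL1 and IFNL2) were below the array median on all 6 arrays. A change could hardly be measured at this signal. Of 9 receptor chains and JAK kinases, 0 passed the test in BxPC3, with differences from -0.25 to 0.22. Of 10 transcription factors listed, 3 were not analysed here, and of the 7 tested 0 passed it, although all 7 were below 0. Over all tested genes, 7086 of 14387 were below 0 in BxPC3. IRF7, 1 of the 7, was below the array median on all 4 BxPC3 arrays and had passed the filter through Panc1. IRF9, the DNA-binding part of ISGF3, read 10.53 and 10.54 in control and 10.22 and 10.12 in knockout BxPC3 (-0.37, adjusted p = 0.0646, limma), and 7.62 in control and 6.45 in knockout Panc1. It was the 1 transcription factor at least 2-fold lower in Panc1. Of 8 genes of feedback control, 0 passed the test.

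All 4 that fell sense nucleic acids or relay that signal upstream of interferon, a list of which 10 were tested. RIGI, the sensor of short double-stranded RNA, read 9.32 and 9.38 in control and 8.53 and 8.35 in knockout BxPC3, a difference of -0.91 ± 0.09 (SE, adjusted p = 0.0106, limma), and 8.18 and 7.90 in Panc1. AIM2, TLR3 and STING1 fell by 0.76, 0.58 and 0.54 in BxPC3. These genes are themselves known to respond to interferon. In Panc1 0 of the sensing genes were at least 2-fold lower. AIM2 and TLR3 read 3.90 and 2.27 there, each the same on both arrays and below the array median, where a fall could hardly be measured.

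Markers of other cell types were read on the same arrays. Of the leukocyte markers, 8 were measured and 4 tested, and CD14 fell in BxPC3 (-0.43, adjusted p = 0.0422, limma) and differed by -0.79 in Panc1. The mean level of the leukocyte list was 4.28 and 4.26 on the BxPC3 control arrays and 4.18 and 4.32 on the knockout arrays, and 4.11 and 4.19 in Panc1. The 3 tested fibroblast markers did not pass the test in BxPC3. Of 4 endothelial markers, KDR was not tested, PECAM1 (-0.02) and VWF (0.21) did not pass the test, and CDH5 fell by 2.19 in BxPC3 to levels below the array median. The epithelial list had a mean of 12.30 and 12.29 in control and 12.29 and 12.25 in knockout BxPC3, and 10.91 in control and 10.34 in knockout Panc1. In Panc1 the epithelial cadherin CDH1 differed by -2.08 and EPCAM by -0.93, while KRT18 differed by 0.21, KRT8 by 0.03 and KRT19 by -0.06, beside the lower members there, and the part of such a shift in the members' differences was not tested.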

How the data were processed

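The deposited log2 values are RMA summaries of array probe sets, made by the authors with RMA in affy per the submitters' processing notes; versions are not given in the sources used here. RMA forces the arrays it is given onto a like distribution and keeps dim probe sets near background, which understates their differences. Of 54613 probe sets, 41091 had 1 symbol, 1801 several and 11721 none; 41037 of those with 1 symbol matched RefSeq by gene identifier, and 0 symbols were updated. Array medians ran from 4.75 to 5.06, and 6 arrays limit the precision.

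From these values, limma 3.58.1 in R 4.3.3 fitted 4 group means to all 14387 tested genes (2 residual and 3.08 prior degrees of freedom), with Benjamini-Hochberg adjustment over all of them and a threshold of 0.05. Panc1, with 1 array per group, was counted at 2-fold. The both-lines fit had 3 residual degrees of freedom. The steps were tested on simulated data. Alternatives covered scaling, probe set choice, filter, variance prior, replicate block and each array left out.

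The members, role groups and lists were chosen with earlier results of these data known. Array values are given for the 27 members that were among the 10 lowest in either line, differed between lines or passed over both lines, and for DDX60 and MX1, chosen after their values were seen; other members are given by range, count or difference. Members with 2 or more probe sets were read from the brightest. Promoter windows, from RefSeq, were scanned for both motifs with no test.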

Additional observations from a re-analysis of the deposited data

Results flagged for a closer look

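For 20 members the knockout effects of BxPC3 and Panc1 differed by the interaction test in limma. The values below are the BxPC3 effect minus the Panc1 effect on the log2 scale, and the test takes the single Panc1 arrays to vary as the BxPC3 arrays do. No explanation was tested for any of them.

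The BxPC3 effect was the lower for 13 members. The difference was -1.76 for USP18, -1.55 for RSAD2, -1.39 for SAMHD1, -1.23 for EPSTI1, -1.13 for CMPK2 and -1.11 for PLSCR1. It was -0.97 for IFIT1, -0.95 for OAS1, -0.89 for MX2, -0.86 for OAS2, -0.85 for HERC6, -0.75 for IFI35 and -0.65 for ISG15. USP18, SAMHD1, EPSTI1, HERC6, MX2 and PLSCR1 had opposite signs in the lines, HERC6 except with quantile normalisation over all arrays. RSAD2, CMPK2, OAS1, OAS2, EPSTI1 and HERC6 were below the array median on both Panc1 arrays, where neither a fall nor a sign could be read with any weight.

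The Panc1 effect was the lower for 7 members. The difference was 3.90 for IFITM1, 1.44 for GBP3, 1.22 for IFIT2, 0.96 for IFITM2, 0.85 for IFITM3, 0.73 for IFIT3 and 0.59 for LGALS3BP. All 7 were below 0 in both lines. With probe sets averaged, IFIT2 (0.36), IFIT3 (0.34) and HERC6 (-0.37) lost the call. RSAD2, IFITM1 and USP18 kept the call whichever BxPC3 array was left out.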

How the results depend on the processing

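The number of members that fell in BxPC3 was 38, and 32 to 48 with other scalings, probe set choices, filters, BxPC3 arrays alone or a trended prior. With arrays centred 39 members fell, where 541 of all tested genes fell, against 515 in the main fit. With 1 BxPC3 array left out it ranged from 4 to 33, the number with differing effects from 3 to 26, the number that fell over both lines was 0, and the BxPC3 median from -0.84 to -0.69. With the replicate number as a block 28 fell; the numbers were not shown to pair the arrays (correlation of deviations -0.17), and a crossed pairing, added after seeing the data, gave 32. With arrays centred, 5 members were at least 2-fold lower in Panc1 (2.09% of tested genes), 0 fell over both lines, and the Panc1 median was -0.34. Averaging probe sets gave 2 over both lines (IFIT3 and ISG20), where 12 of all tested genes fell, and a Panc1 median of -0.33. Without a filter the effects of 13 members differed. A trended prior gave 6 over both lines, but calls over all tested genes also rose, to 28 from 12 in the main fit. A 1.5-fold threshold gave 21 members lower in Panc1 (9.56% of tested genes). Quantile normalisation left 1 over both lines, RTP4 in place of ISG20, where 10 of all tested genes fell. For the remaining counts of calls here, the number over all tested genes is not given. The BxPC3 difference of MX1 turned to 0.013 with arrays centred, and ranged from -0.15 to 0.14 with 1 array left out. The cause of these changes was not tested. The BxPC3 arrays are 2 per group, and the 13 members below the array median on both Panc1 arrays have little signal over background.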
